A study of Mus musculus with 13 samples.

Results

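Red blood cells and their nucleated precursors, the erythroblasts, were followed in mouse liver through 8 genes. These are the haem synthesis enzyme gene Alas2, the membrane genes Slc4a1, Epb42 and Rhag, the cytosolic carbonic anhydrase genes Car1 and Car2, and the nuclear regulators Hemgn and Klf1. Each gene was read from an array feature to which the platform annotation gives exactly 1 gene symbol. Where a gene has several such features, the rule takes the feature whose mean across the 13 livers is highest. All 8 genes had such a feature, out of 18820 genes that had one, and none of the 8 had more than 1.

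The livers came from C57BL/6J mice, and each liver was hybridised to its own Affymetrix array, of a type that probes whole transcripts. LiSel1lKO mice carried a floxed exon 6 of Sel1l and a Cre recombinase driven by the albumin promoter, which is active in hepatocytes, so that blood cells in the liver were not the cells targeted. The groups were LiSel1lKO at 9 wks of age (n = 3), wildtype at 9 wks (n = 3), LiSel1lKO at 3 wks (n = 4) and wildtype at 3 wks (n = 3), and all mice were fasted in the morning before the livers were frozen. The labels do not give the Cre and floxed-allele status of the wildtype mice, their sex or their litters.

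The liver is the main site of red cell formation in the fetus. In the mouse this activity moves to the bone marrow and spleen around birth, and nucleated precursors become scarce in the liver afterwards. Whole liver also holds circulating blood, in which young red cells (reticulocytes) still carry RNA. Erythroblasts build haem and haemoglobin, lay down a membrane skeleton anchored to the anion exchanger band 3, and are driven by the transcription factors GATA1 and KLF1. Carbonic anhydrases, which interconvert carbon dioxide and bicarbonate, are abundant red cell proteins, but members of this enzyme family are also made in hepatocytes and other cells.

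All levels below are the authors' deposited log2 expression values, so that a difference of 1 is a doubling or halving of signal. The array medians lay between 3.72 and 3.81, and the number of arrays limits the precision. Differences were tested with limma over all 35556 features, and a gene is said to rise or fall only where its Benjamini-Hochberg adjusted p was under 0.05. Livers of the same group correlated at 0.9828 to 0.9884 over all features and livers of different groups at 0.9761 to 0.9871. Sel1l itself lay between 7.54 and 7.90 in LiSel1lKO livers and between 8.70 and 8.78 in wildtype livers at 9 wks. At 3 wks Sel1l read 8.42, 7.90, 7.20 and 7.10 in LiSel1lKO replicates 1 to 4, and between 8.77 and 8.94 in wildtype livers. The Sel1l groups did not overlap at either age, although the differences did not pass the test (-1.02 ± 0.28, adjusted p = 0.108 at 9 wks, and -1.21 ± 0.26, adjusted p = 0.391 at 3 wks, SE). Whether the Sel1l feature covers the floxed exon was not examined here, and the part of the Sel1l spread in the other genes was not tested. The 9 measured hepatocyte markers had a mean level between 12.24 and 12.50 in every liver.

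The 8 genes did not behave as 1 group in these livers. Alas2, Car1 and Car2 lay above the array median in all 13 livers. Klf1 did so in 12 of 13, Slc4a1 in 8 of 13, and Epb42, Rhag and Hemgn in 0 of 13. In wildtype livers Car1 rose while Slc4a1 and Car2 fell at 9 wks relative to 3 wks. Between genotypes at 9 wks, Car1 fell in LiSel1lKO relative to wildtype livers. Since bulk liver was measured, fewer cells of a type and less RNA per cell cannot be told apart.

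**Figure D1:**
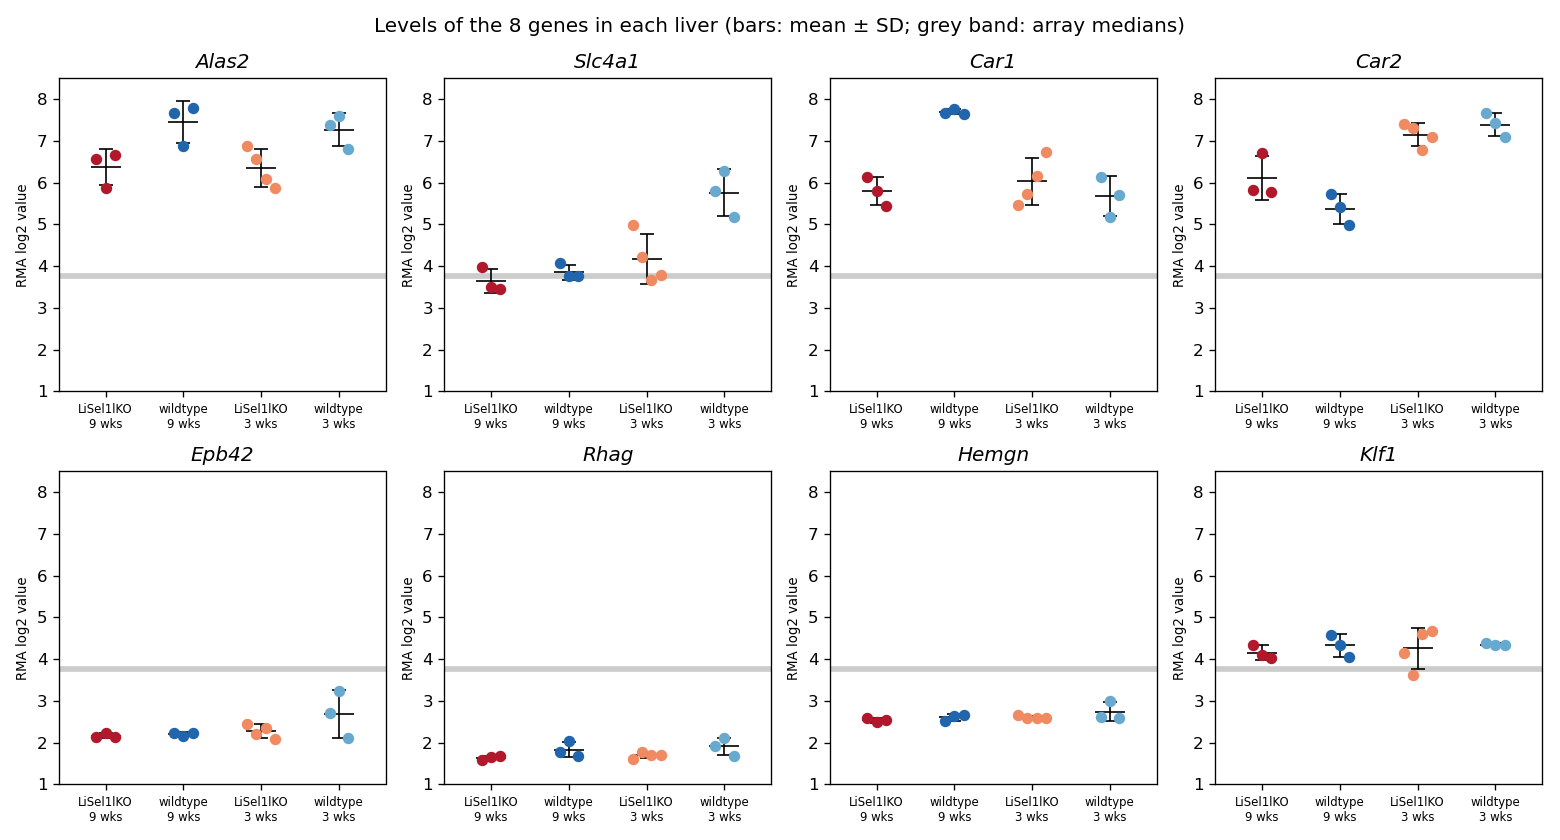
Log2 value of each of the 8 genes (1 panel each) in every liver, by group, with each point 1 liver, bars the group mean ± SD, and the grey band the range of the array medians. Car1 stands highest in the 3 wildtype livers at 9 wks (7.65 to 7.76), Slc4a1 in the 3 wildtype livers at 3 wks (5.18 to 6.29), and Epb42, Rhag and Hemgn lie below the band throughout.

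RefSeq promoter windows (mouse build GRCm38.p6) were at hand for 5 of the 8 genes, Alas2, Epb42, Rhag, Hemgn and Klf1. They are shown because these genes are regarded as parts of 1 erythroid programme, in which GATA1 and KLF1 act on promoters and enhancers. The first is the stretch of 250 bases before the start of Alas2 (chrX:150547167-150547416, + strand), in which capitals mark a GATA core, as its reverse complement TTATCT, and a run of overlapping or adjoining matches to the KLF1-type box CCNCNCCCN on the opposite strand.
Alas2: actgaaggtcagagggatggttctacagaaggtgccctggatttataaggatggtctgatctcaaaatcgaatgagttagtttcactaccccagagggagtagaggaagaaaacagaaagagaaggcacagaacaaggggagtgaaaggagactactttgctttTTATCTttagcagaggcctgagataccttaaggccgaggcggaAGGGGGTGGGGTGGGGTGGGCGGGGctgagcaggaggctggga

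The windows around the GATA core nearest to the start of the other genes follow, with the core in capitals and no base after the gene's start. They lie at chr2:121037078-121037123 (- strand) for Epb42, chr17:40811098-40811143 (+ strand) for Rhag, chr4:46404184-46404216 (- strand) for Hemgn and chr8:84901882-84901927 (+ strand) for Klf1, and each reads 5′ to 3′ on the gene's own strand.
Epb42: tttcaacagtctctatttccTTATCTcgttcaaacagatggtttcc
Rhag: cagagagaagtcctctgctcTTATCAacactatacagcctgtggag
Hemgn: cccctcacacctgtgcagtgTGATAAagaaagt
Klf1: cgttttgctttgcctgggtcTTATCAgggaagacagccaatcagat

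A GATA core (AGATAA or TGATAA on either strand) was found in 5 of these 5 windows of 300 bases, which run from 250 bases before to 50 after the gene's start. The same search found one in 6115 of all 32851 mouse windows in the table, or 18.6%. The first base of the match nearest to the start lay at -31 in Rhag, -13 in Hemgn, -80 in Klf1, -86 in Alas2 and -226 in Epb42. Matches to CCNCNCCCN on either strand, which overlap or adjoin one another, were found in the Alas2 and Hemgn windows (2 of 5), against 49.4% of all windows. The 4 Hemgn matches all lay in an unbroken run of G and the T before it, which the open positions (N) of the pattern allow. The E-box CANNTG, which reads the same on both strands, was found in 3 of 5 (Epb42, Hemgn and Klf1), against 72.3%. A match is a run of letters and not a measured binding site. The 5 genes with a window had no call in any contrast, and Slc4a1, Car1 and Car2, which had calls, had no window.

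Alas2 encodes the erythroid form of 5-aminolevulinate synthase, the first and rate-limiting enzyme of haem synthesis in red cell precursors. It read 6.56, 5.88 and 6.67 in LiSel1lKO livers at 9 wks, against 7.68, 6.88 and 7.80 in wildtype livers at 9 wks. The younger livers read 6.87, 6.58, 6.08 and 5.87 in LiSel1lKO livers, against 7.39, 7.61 and 6.82 in wildtype livers. Every LiSel1lKO liver at 9 wks was thus below every wildtype liver of that age, while at 3 wks the highest LiSel1lKO liver stood just above the lowest wildtype liver.

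The Alas2 means were 6.37 ± 0.43 and 7.45 ± 0.50 in LiSel1lKO and wildtype livers at 9 wks (SD, n = 3 each). The difference of -1.08 ± 0.33 (SE, 95% interval -1.81 to -0.35, 0.473 of the wildtype signal) did not pass the test (adjusted p = 0.154). At 3 wks the means were 6.35 ± 0.46 in LiSel1lKO livers (SD, n = 4) and 7.27 ± 0.40 in wildtype livers (SD, n = 3), and the difference of -0.92 ± 0.31 (SE, interval -1.61 to -0.24) did not pass either (adjusted p = 0.56). The size of the 9 wks difference varied with the position column of the array, a number 5 or 7 in the array descriptions whose meaning is not explained there. It was -0.26 within column 5 (2 LiSel1lKO livers, 1 wildtype) and -1.86 within column 7 (1 LiSel1lKO liver, 2 wildtype), against -0.88 and -1.13 at 3 wks. With age Alas2 differed by 0.02 ± 0.31 in LiSel1lKO livers and 0.18 ± 0.33 in wildtype livers (SE, adjusted p = 0.994 and 0.877). Ordered by mean, wildtype at 9 wks came first, then wildtype at 3 wks, LiSel1lKO at 9 wks and LiSel1lKO at 3 wks, and the ranges overlapped between the first 2 and between the last 2 but not between wildtype at 3 wks and LiSel1lKO at 9 wks.

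The partner genes of haem synthesis gave no call. Of 11 measured genes of the pathway and its mitochondrial carriers, 0 rose and 0 fell in any of the 5 contrasts, and the median differences were -0.09 between genotypes at 9 wks, -0.04 between genotypes at 3 wks and 0.01 with age in wildtype livers. Abcb10, a mitochondrial inner-membrane transporter needed for haem synthesis in erythroid cells, read 5.94, 5.52 and 5.66 in LiSel1lKO livers and 6.15, 6.52 and 6.50 in wildtype livers at 9 wks. Those groups did not overlap, and the difference of -0.68 ± 0.17 (SE) had an adjusted p of 0.0846. Slc25a38, the mitochondrial carrier that brings in glycine for haem synthesis, lay the other way, at 7.48, 7.44 and 7.53 in LiSel1lKO livers and 7.26, 6.92 and 7.24 in wildtype livers at 9 wks. At 3 wks it read 7.32, 7.35, 7.58 and 7.49 in LiSel1lKO livers and 7.05, 7.18 and 7.16 in wildtype livers. Its groups did not overlap at either age, and the differences of 0.34 ± 0.11 and 0.30 ± 0.10 (SE) did not pass the test (adjusted p = 0.151 and 0.535). Alas1, the housekeeping synthase that hepatocytes use, lay between 11.04 and 11.58 in LiSel1lKO livers and between 11.34 and 11.95 in wildtype livers at 9 wks, with a difference of -0.38 ± 0.31 (SE, adjusted p = 0.656). At 3 wks Alas1 differed by -0.79 ± 0.29 (SE, adjusted p = 0.6), and LiSel1lKO replicate 3 was the lowest liver at 10.12.

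Slc4a1 encodes band 3, the chloride and bicarbonate exchanger that is the most abundant protein of the red cell membrane. It read 3.98, 3.51 and 3.45 in LiSel1lKO livers at 9 wks and 4.07, 3.76 and 3.76 in wildtype livers at 9 wks. The 3 wks values were 4.99, 4.23, 3.67 and 3.80 in LiSel1lKO livers and 5.81, 6.29 and 5.18 in wildtype livers. The 3 wildtype livers at 3 wks stood above the 10 others, with no overlap, and the other groups overlapped in a range close to the array medians.

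In wildtype livers Slc4a1 averaged 3.86 ± 0.18 at 9 wks and 5.76 ± 0.56 at 3 wks (SD, n = 3 each), and the fall of -1.90 ± 0.34 (SE, adjusted p = 0.0197) left 0.268 of the 3 wks signal. That difference was -1.74 within position column 5 (1 liver of 9 wks, 2 of 3 wks) and -2.38 within column 7 (2 of 9 wks, 1 of 3 wks). The call was lost, at adjusted p between 0.0617 and 0.0768, when only the 2 groups entered the fit or when wildtype replicate 1 or 2 of 3 wks or replicate 2 or 3 of 9 wks was left out. In LiSel1lKO livers the age difference was -0.53 ± 0.32 (SE, adjusted p = 0.656). At 3 wks the LiSel1lKO mean of 4.17 ± 0.59 (SD, n = 4) set against the wildtype mean gave -1.59 ± 0.32 (SE, interval -2.29 to -0.89, 0.332 of the wildtype signal). That difference did not pass the test over all features (adjusted p = 0.391, unadjusted p = 0.000399). It was -1.48 within column 5 (2 LiSel1lKO livers, 2 wildtype) and -1.96 within column 7 (2 LiSel1lKO, 1 wildtype). At 9 wks the genotype difference was -0.22 ± 0.34 (SE, adjusted p = 0.849), and the difference between the genotype effects of the 2 ages was 1.37 ± 0.47 (SE, adjusted p = 0.395). Both the 3 wks genotype contrast and the wildtype age contrast rest on the same 3 wildtype livers.

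Epb42 encodes protein 4.2, which ties band 3 to the membrane skeleton, and Rhag encodes the Rh-associated glycoprotein, a membrane partner of the Rh proteins. Epb42 read 2.14, 2.24 and 2.13 in LiSel1lKO livers and 2.23, 2.15 and 2.23 in wildtype livers at 9 wks. At 3 wks it read 2.45, 2.20, 2.36 and 2.09 in LiSel1lKO livers and 2.70, 3.25 and 2.11 in wildtype livers. The highest Epb42 value belonged to wildtype replicate 2 of 3 wks, the liver that was also highest for Slc4a1, but the groups overlapped in each contrast. The Epb42 differences were -0.04 ± 0.22 at 9 wks and -0.41 ± 0.20 at 3 wks between genotypes, and -0.48 ± 0.22 with age in wildtype livers (SE, adjusted p = 0.968, 0.696 and 0.362).

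Rhag lay between 1.59 and 1.67 in LiSel1lKO livers and between 1.68 and 2.03 in wildtype livers at 9 wks, and between 1.61 and 1.77 in LiSel1lKO livers and 1.69 and 2.11 in wildtype livers at 3 wks. The 9 wks groups did not overlap but lay within the lowest part of the scale, and the difference was -0.19 ± 0.11 (SE, adjusted p = 0.51). Where only 1 group is at background, a difference to or from it is a lower bound. Where both groups are, as may be so for Rhag, the difference sets no bound.

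Of 15 measured genes of the red cell membrane and skeleton outside the 8, 0 rose and 1 fell with age in wildtype livers, and 0 were called in the other contrasts. The gene that fell was Sptb, which encodes the beta spectrin of red cells. Sptb read 3.63, 3.70 and 3.90 in wildtype livers at 9 wks and 4.96, 5.13 and 4.50 in wildtype livers at 3 wks, a difference of -1.12 ± 0.18 (SE, adjusted p = 0.0127). The Sptb call was lost with only the 2 groups in the fit (adjusted p = 0.0769) and without wildtype replicate 1 of 3 wks (0.0503). Its 3 wks genotype difference was -0.52 ± 0.17 (SE, adjusted p = 0.541), with 4.44, 4.64, 3.96 and 4.32 in the LiSel1lKO livers. The list's medians were -0.12 at 9 wks and -0.09 at 3 wks between genotypes and -0.04 with age in wildtype livers. Tspan33, a tetraspanin needed for red cell formation, had -0.41 ± 0.10 between genotypes at 9 wks (SE, adjusted p = 0.0816), and Ermap, an erythroid membrane protein, had -0.33 ± 0.09 at 3 wks (SE, adjusted p = 0.439).

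Car1 encodes carbonic anhydrase 1, a cytosolic enzyme abundant in red cells and in the colon. It read 6.14, 5.81 and 5.45 in LiSel1lKO livers at 9 wks, against 7.68, 7.76 and 7.65 in wildtype livers at 9 wks. At 3 wks it read 5.46, 5.74, 6.17 and 6.74 in LiSel1lKO livers and 6.13, 5.19 and 5.71 in wildtype livers. The 3 wildtype livers at 9 wks stood above all 10 others and close together, and the other 3 groups overlapped.

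Between genotypes at 9 wks Car1 fell in LiSel1lKO relative to wildtype livers. The means were 5.80 ± 0.34 in LiSel1lKO and 7.70 ± 0.06 in wildtype livers (SD, n = 3 each). The difference was -1.89 ± 0.32 (SE, interval -2.59 to -1.20, adjusted p = 0.0196), or 0.269 of the wildtype signal. Split by position column, these same livers gave -1.96 in column 5 (2 LiSel1lKO, 1 wildtype) and -1.85 in column 7 (1 LiSel1lKO, 2 wildtype). Leaving out any of the 3 wildtype livers of 9 wks, or LiSel1lKO replicate 2 or 3 of 9 wks, raised the adjusted p to between 0.0518 and 0.0971, and fitting the 2 groups alone raised it to 0.114, while the difference stayed between -2.06 and -1.72 with 1 liver left out. At 3 wks Car1 differed by 0.35 ± 0.30 between genotypes (SE, adjusted p = 0.824). The difference between the 2 genotype effects was -2.25 ± 0.43 (SE, interval -3.20 to -1.30) and did not pass the test (adjusted p = 0.179, unadjusted p = 0.000281).

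With age Car1 rose in wildtype livers by 2.02 ± 0.32 (SE, adjusted p = 0.00997), to 4.05 times the 3 wks signal, and passed the test under every alternative tried. The difference was 1.84 within column 5 (1 liver of 9 wks, 2 of 3 wks) and 2.48 within column 7 (2 of 9 wks, 1 of 3 wks). In LiSel1lKO livers the age difference was -0.23 ± 0.30 (SE, adjusted p = 0.889). The genotype contrast at 9 wks and the wildtype age contrast use the same 3 wildtype livers.

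Car2 encodes carbonic anhydrase 2, the fast cytosolic form, which is made in red cells and in many other tissues. It read 5.82, 6.72 and 5.79 in LiSel1lKO livers at 9 wks, against 5.72, 5.42 and 4.99 in wildtype livers at 9 wks. At 3 wks it read 7.40, 7.30, 6.79 and 7.10 in LiSel1lKO livers and 7.66, 7.43 and 7.10 in wildtype livers. All 7 livers of 3 wks stood above all 6 livers of 9 wks, and among the older livers LiSel1lKO was above wildtype with a narrow gap.

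Car2 fell with age in wildtype livers (-2.02 ± 0.27, SE, adjusted p = 0.00468, leaving 0.247 of the signal), with means of 5.38 ± 0.36 at 9 wks and 7.39 ± 0.28 at 3 wks (SD, n = 3 each). This call held under every alternative tried. The difference was -1.96 within column 5 (1 liver of 9 wks, 2 of 3 wks) and -2.07 within column 7 (2 of 9 wks, 1 of 3 wks). In LiSel1lKO livers the age difference was -1.04 ± 0.25 (SE, interval entirely below 0, adjusted p = 0.163), with means of 6.11 ± 0.53 at 9 wks (SD, n = 3) and 7.15 ± 0.27 at 3 wks (SD, n = 4). Between genotypes Car2 differed by 0.73 ± 0.27 at 9 wks (SE, interval 0.13 to 1.33, adjusted p = 0.243) and by -0.25 ± 0.25 at 3 wks (SE, adjusted p = 0.859). The difference of those effects was 0.98 ± 0.37 (SE, adjusted p = 0.445).

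Car1 and Car2 thus moved in opposite directions with age in wildtype livers, each past the test. The 12 other measured carbonic anhydrases had 0 calls in any contrast, with medians of -0.09 at 9 wks and 0.09 at 3 wks between genotypes and 0.02 with age in wildtype livers. Car3, the form abundant in hepatocytes, adipose tissue and muscle, read 12.15, 12.27 and 12.09 in wildtype livers at 9 wks and 11.33, 9.96 and 10.72 in wildtype livers at 3 wks. Those groups did not overlap, with a difference of 1.50 ± 0.41 (SE, adjusted p = 0.101), and in the LiSel1lKO livers Car3 ranged from 11.15 to 12.19 at 9 wks and from 10.88 to 12.17 at 3 wks. Car8, an inactive relative of the enzymes, differed by -0.60 ± 0.16 between genotypes at 9 wks (SE, adjusted p = 0.102).

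Klf1 encodes the erythroid Krüppel-like factor, a transcription factor of globin and membrane genes, and Hemgn encodes hemogen, a nuclear protein of blood precursors. The Klf1 feature read 4.35, 4.10 and 4.03 in LiSel1lKO livers and 4.59, 4.33 and 4.06 in wildtype livers at 9 wks. At 3 wks it read 4.15, 3.62, 4.60 and 4.68 in LiSel1lKO livers and 4.40, 4.33 and 4.33 in wildtype livers. The 4 groups overlapped, and LiSel1lKO replicate 2 of 3 wks was the only liver below its array median. The differences were -0.17 ± 0.24 at 9 wks and -0.09 ± 0.23 at 3 wks between genotypes, and -0.03 ± 0.24 with age in wildtype livers (SE, adjusted p = 0.827, 0.95 and 0.98).

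Hemgn lay between 2.49 and 2.60 in LiSel1lKO livers and between 2.52 and 2.66 in wildtype livers at 9 wks, and between 2.60 and 2.66 in LiSel1lKO livers and 2.60 and 3.00 in wildtype livers at 3 wks. Its differences were -0.06 ± 0.10 at 9 wks and -0.13 ± 0.10 at 3 wks between genotypes, and -0.14 ± 0.10 with age in wildtype livers (SE, adjusted p = 0.852, 0.8 and 0.635). Of the 13 livers, 5 carried the same Hemgn value to the last digit. A value shared by at least 5 livers was found in 6.65% of all features, and one shared by at least 2 livers in 42.9%.

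Of 13 measured erythroid transcription factors outside the 8, 0 were called in any contrast, and the medians were -0.13 at 9 wks and -0.04 at 3 wks between genotypes and 0.03 with age in wildtype livers. Gata1, the main erythroid GATA factor, lay between 2.18 and 2.39 in wildtype livers at 9 wks and between 2.54 and 2.85 in wildtype livers at 3 wks, a difference of -0.41 (adjusted p = 0.237) below the array medians. Differences above 0 in the same contrast included Bcl11a, a repressor of fetal globin genes (0.40 ± 0.11, SE, adjusted p = 0.119), and Zfpm1, which encodes the GATA1 partner FOG1 (0.48 ± 0.16, SE, adjusted p = 0.19). Tal1, a partner of GATA1, differed by -0.29 between genotypes at 9 wks (adjusted p = 0.186).

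Set together, 0 of the 8 genes rose and 1 fell between LiSel1lKO and wildtype livers at 9 wks, where 1.52% of all features were called (1.03% higher and 0.484% lower). At 3 wks 0 of the 8 were called, where 0% of features were called, and 2 of the 8 had an unadjusted p under 0.05, against 2634 features (7.41%). The test of the difference between the 2 genotype effects called 0 of the 8 and 0% of features, and 3 of the 8 had an unadjusted p under 0.05, against 9.73% of features. With age in LiSel1lKO livers 0 of the 8 were called, against 0.155% of features (0.0759% higher and 0.0787% lower, or 27 and 28 features, and 21 and 14 with each array centred on its median), and 1 of the 8 (Car2) had an unadjusted p under 0.05, against 10.1%. With age in wildtype livers 1 rose and 2 fell, against 1.89% of features (0.765% higher and 1.12% lower).

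Groups that did not overlap were counted in the same way. At 9 wks this held for 4 of the 8 between genotypes (Car2 higher, Alas2, Car1 and Rhag lower in LiSel1lKO livers), against 18.4% of features (9.89% higher and 8.52% lower). The nearest LiSel1lKO and wildtype livers read 1.67 and 1.68 for Rhag and 5.79 and 5.72 for Car2, so these 2 counted by narrow gaps. At 3 wks it held for Slc4a1 alone, against 7.41% (3.88% higher and 3.53% lower). With age it held for Car2 in LiSel1lKO livers, against 9.35% (4.67% higher and 4.69% lower), and for Car1, Car2 and Slc4a1 in wildtype livers, against 17.8% (8.46% higher and 9.38% lower). The median difference of the 8 was -0.18 at 9 wks and -0.23 at 3 wks between genotypes, with 7 of 8 below 0 at each age, while the median over all features was -0.007 and 0.004. The exceptions to the sign were Car2 at 9 wks and Car1 at 3 wks. With age the medians were -0.11 in LiSel1lKO livers and -0.11 in wildtype livers.

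**Figure D2:**
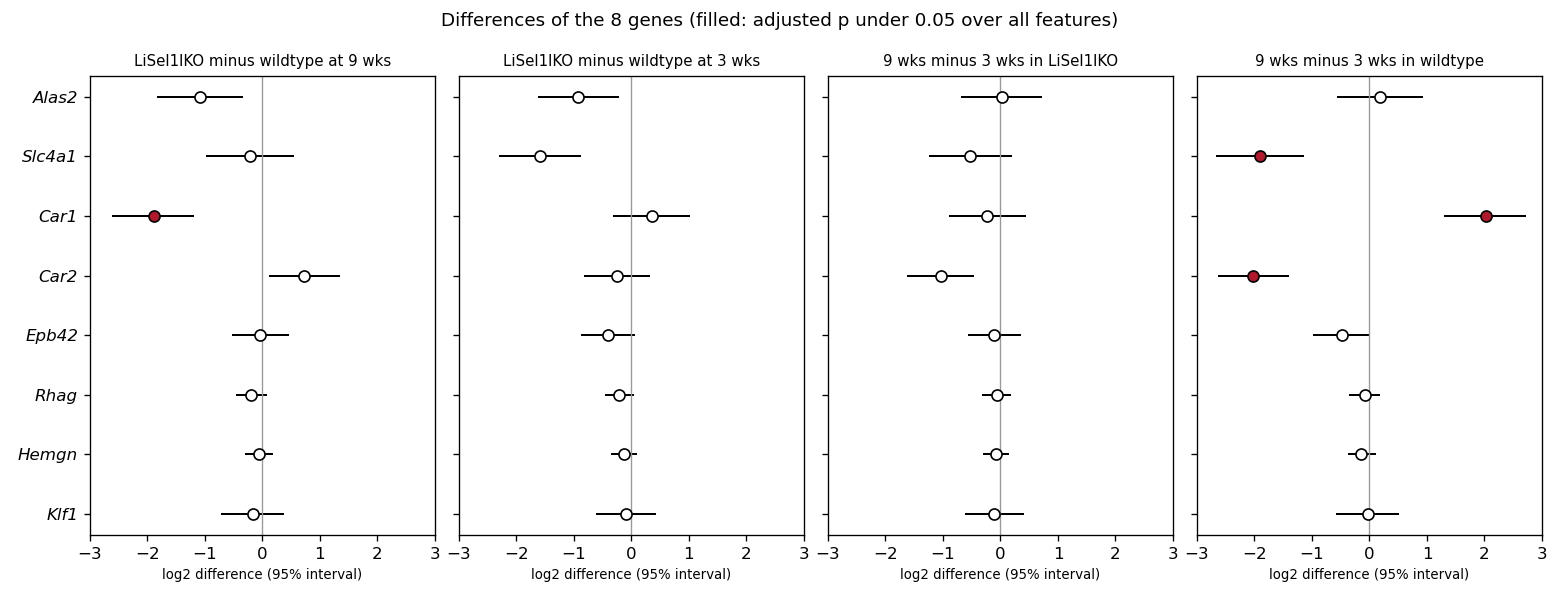
Log2 difference of each of the 8 genes in 4 contrasts (1 panel each), with 95% intervals as horizontal lines and filled points for an adjusted p under 0.05 over all features. Only Car1 is filled between genotypes (at 9 wks, -1.89), and Slc4a1 (-1.90), Car1 (2.02) and Car2 (-2.02) are filled for age in wildtype livers.

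How the 8 genes varied from liver to liver within the groups was described by the correlation of their deviations from the group means over the 13 livers. Of the 28 pairs 13 were above 0, the median was -0.03 and the range -0.56 to 0.75. These are descriptions over few livers, and within a liver the 8 genes were read on 1 array from 1 RNA sample. Across LiSel1lKO replicates 1 to 4 of 3 wks, Alas2 had the same order as Sel1l, Car1 the reverse order and the others neither. These are orders of only 4 livers. The share of all features with either order was not counted, and a relation to Sel1l was not tested. Alas2 and Slc4a1 had a positive correlation (r = 0.72, rank correlation 0.56). Their r was 0.81 without the 2 livers whose Alas2 deviations lay farthest from the median deviation (replicate 2 of each genotype at 9 wks). The 2 livers farthest by Slc4a1 were not left out together for this pair. Without 1 of them, wildtype replicate 2 of 3 wks, r was 0.69. It was 0.64 within the 7 livers of column 5 and 0.76 within the 6 of column 7. Car1 had r = -0.56 with Alas2 (rank correlation -0.74, -0.39 in column 5 and -0.71 in column 7) and 0.61 with Klf1 (rank correlation 0.74, 0.83 in column 5 and 0.45 in column 7). The value for Car1 and Slc4a1 was -0.51 over 13 livers, 0.01 in column 5 and -0.94 in column 7. It was -0.05 without the 2 livers whose Slc4a1 deviations lay farthest from the median deviation. For Car1 and Epb42 it was 0.02 in column 5 and -0.69 in column 7, and for Car1 and Hemgn -0.07 and -0.67. The highest value, 0.75 for Epb42 and Hemgn, rested on wildtype replicates 2 and 3 of 3 wks, and was -0.02 without them (rank correlation 0.39). On the values themselves, which include the group differences, the pairs ranged from -0.69 for Car1 and Car2 to 0.83, with 22 of 28 above 0.

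**Figure D3:**
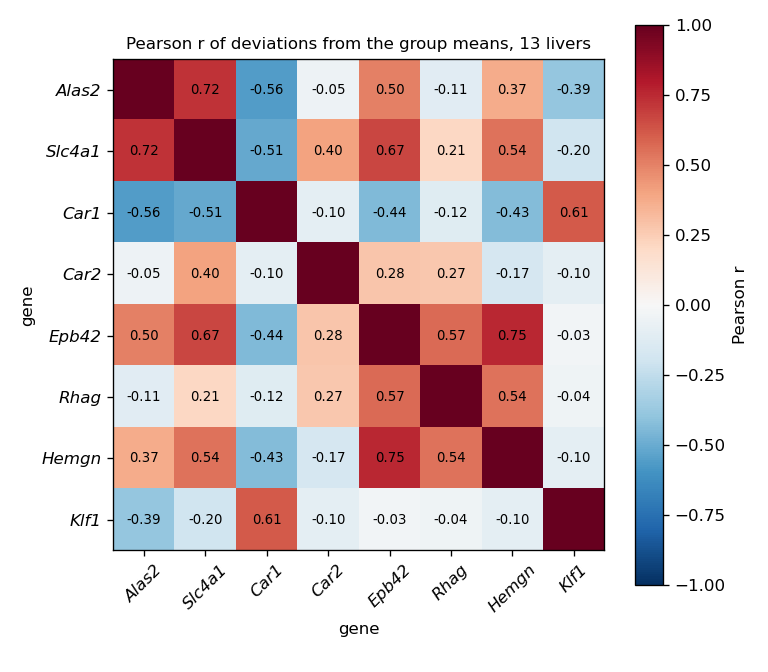
Pearson correlation of the deviations from the group means for each pair of the 8 genes over 13 livers, in colour and printed in each square. Over all 13 livers Alas2, Slc4a1, Epb42 and Hemgn have values of 0.37 to 0.75 with each other and of -0.56 to -0.43 with Car1, but several of these are near 0 in a subset of livers (-0.02 for Epb42 and Hemgn without 2 livers, 0.13 for Alas2 and Hemgn and 0.01 for Slc4a1 and Car1 in column 5).

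The genes outside the 8 whose deviations followed the mean of the 8 most closely were Capn9 (r = 0.93), Bcl7a (0.92), Kdm4d (0.90), Zfp429 (0.90), Lurap1 (0.90) and Brms1l (0.88), each over 13 livers. That mean did not stand for all 8 alike, with r from -0.15 for Car1 and 0.20 for Klf1 to 0.88 for Epb42. Capn9, Kdm4d and Lurap1 had mean levels of 1.93, 2.25 and 3.25, below the array medians, and the others 4.87 to 5.75. On the values themselves the closest genes were Cox7a1 (r = 0.93), Svs3b (0.90), Cstad (0.90), Ikzf4 (0.89), Nedd4 (0.89) and Sh3d21 (0.87). Of those, Svs3b and Cstad had mean levels of 3.33 and 2.61, and the others 3.80 to 9.87. None of these 12 was on any of the red cell lists. They are the highest of the correlations over all named genes, computed over few livers.

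Genes that act late in red cell development gave 1 call. Of 17 measured genes of red cell maturation, 0 rose and 1 fell with age in wildtype livers, with 15 of 17 below 0 and a median of -0.12. The gene was Ctse, which encodes the aspartic protease cathepsin E. Ctse read 4.34, 4.01 and 4.03 in wildtype livers at 9 wks and 5.42, 5.34 and 4.51 in wildtype livers at 3 wks, a difference of -0.96 ± 0.21 (SE, adjusted p = 0.0431). That call was lost under 16 of 23 alternatives, at an adjusted p of up to 0.238. Between genotypes at 3 wks 0 of 17 were called, 15 of 17 lay below 0 and the median was -0.20.

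The lowest p-values of that list at 3 wks belonged to Ctse, Cd24a and Bpgm. Ctse read 4.31, 4.31, 4.06 and 4.05 in LiSel1lKO livers at 3 wks, all below the 3 wildtype livers of that age, with a difference of -0.91 ± 0.20 (SE, adjusted p = 0.391). Cd24a, a surface protein of immature red cells and other cells, differed by -1.04 ± 0.33 (SE, adjusted p = 0.515). Bpgm, the enzyme that makes the haemoglobin ligand 2,3-bisphosphoglycerate, differed by -0.56 ± 0.18 (SE, adjusted p = 0.535). At 9 wks the list's genotype median was -0.02, with 11 of 17 below 0. Ypel4, of the yippee-like family, read 3.52, 3.63 and 4.07 in LiSel1lKO livers and 3.04, 3.11 and 3.08 in wildtype livers at 9 wks. It thus lay above wildtype in all 3 LiSel1lKO livers, around or below the array medians, and the difference of 0.66 ± 0.15 (SE) had an adjusted p of 0.0628. Slc43a1, an amino acid transporter, had an age difference of -1.15 in wildtype livers (adjusted p = 0.0762).

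Of 15 measured genes of erythropoietin and iron supply, 0 were called in any contrast, with medians of -0.11 at 9 wks and -0.02 at 3 wks between genotypes and 0.02 with age in wildtype livers. Tfr2, the transferrin receptor with which hepatocytes sense iron, read 8.62, 8.62 and 8.42 in LiSel1lKO livers and 8.86, 8.90 and 9.06 in wildtype livers at 9 wks. Those groups did not overlap, and the difference of -0.38 ± 0.09 (SE) had an adjusted p of 0.056. Slc11a2, the iron transporter DMT1, differed by 0.36 ± 0.13 at 9 wks (SE, adjusted p = 0.204). Epor, the erythropoietin receptor, differed by 0.37 at 9 wks and -0.38 at 3 wks between genotypes (adjusted p = 0.179 and 0.477). Tfrc, the transferrin receptor through which erythroblasts and dividing cells take up iron, differed by -0.89 with age in wildtype livers (adjusted p = 0.0957).

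The 4 measured globin genes were the embryonic ones, Hba-x, Hbb-bh1, Hbb-bh2 and Hbb-y. All 4 lay below the array median in every liver, 0 were called, and the medians were -0.18 at 9 wks and -0.03 at 3 wks between genotypes and 0.07 with age in wildtype livers. The features of the adult globins carry several symbols and were not analysed here.

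Markers of other cells and of cell division are given beside these results, since some lists lay to 1 side of 0 in the same contrasts. The 14 markers of macrophages, including the resident Kupffer cells that clear old red cells, had differences below 0 in 14 of 14 between genotypes at 3 wks (median -0.42, 0 called). Their mean level was 7.06 to 7.34 in LiSel1lKO livers and 7.61 to 7.70 in wildtype livers at 3 wks, and their summed level 98.9 to 102.8 in LiSel1lKO livers and 106.6 to 107.9 in wildtype livers. With age in wildtype livers 14 of 14 were below 0 (median -0.35), and 1 fell, the scavenger receptor gene Marco (-2.09 ± 0.42, SE, adjusted p = 0.0299). The Marco call was lost with the position column as a block (adjusted p = 0.0565) and without any 1 of the 6 wildtype livers (up to 0.0963). Between genotypes at 9 wks 10 of 14 were above 0 (median 0.06, 0 called), and the summed level was 90.0, 106.6 and 105.3 in LiSel1lKO livers and 95.9, 102.9 and 100.2 in wildtype livers. LiSel1lKO replicate 1 was thus the lowest liver of that age and the 2 other LiSel1lKO livers the highest, and for Marco it read 4.84, against 6.58 in each of them. Vcam1, an adhesion molecule of macrophages and vessel walls, read 7.63, 8.19 and 7.96 in LiSel1lKO livers and 6.83, 7.41 and 7.09 in wildtype livers at 9 wks. Those groups did not overlap, and the difference of 0.82 ± 0.23 (SE) did not pass the test (adjusted p = 0.12). None of the 14 was below the array median in every liver of any group. Hmox1, the haem-degrading enzyme of these cells, differed by -0.79 between genotypes at 3 wks (adjusted p = 0.484) and by -1.10 with age in wildtype livers (adjusted p = 0.0535).

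Of 8 measured cell division genes 6 fell with age in wildtype livers (median of the 8 -1.65), among them Ccna2, the cyclin of DNA replication (-2.50 ± 0.29, SE, adjusted p = 0.00212), and Aurkb, a mitotic kinase (-1.86 ± 0.27, SE, adjusted p = 0.00655). Between genotypes all 8 were above 0 at 9 wks (median 0.46) and all 8 below 0 at 3 wks (median -0.59), with 0 called at either age. Their summed level at 3 wks was 36.6 to 44.99 in LiSel1lKO livers and 43.54 to 46.44 in wildtype livers, and at 9 wks 33.82 to 36.98 in LiSel1lKO livers and 31.67 to 32.7 in wildtype livers. The part of these markers in the differences of Slc4a1, Car1 and Car2 was not tested.

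The remaining lists had 0 calls between genotypes. Neutrophil and granulocyte precursor markers (11 genes) had medians of -0.26 at 9 wks and -0.15 at 3 wks between genotypes and -0.05 with age in wildtype livers. Of these, 9 lay below the array median in every LiSel1lKO liver at 9 wks, 8 in every wildtype liver at 9 wks, 8 in every LiSel1lKO liver at 3 wks and 7 in every wildtype liver at 3 wks. Megakaryocyte and platelet markers (7 genes) had medians of -0.15, -0.07 and -0.02 in the same 3 contrasts, and among them the platelet chemokine gene Ppbp read 3.39, 3.32, 3.10 and 3.54 in LiSel1lKO livers and 5.50, 4.26 and 4.20 in wildtype livers at 3 wks (-1.32 ± 0.29, SE, adjusted p = 0.391). Ppbp did not overlap between those groups, as Slc4a1 did not. Lymphocyte markers (10 genes) had medians of -0.10, 0.01 and 0.19, and bile duct markers (6 genes) of -0.18, -0.04 and 0.14. Stem and progenitor markers (8 genes) had medians of -0.11, -0.00 and 0.13, with 1 fall with age in wildtype livers, the homeobox gene Meis1 (-0.65 ± 0.14, SE, adjusted p = 0.0445), a call lost under 15 of 23 alternatives at an adjusted p of up to 0.232. Hepatocyte markers (9 genes) had medians of -0.12, 0.02 and 0.05 and 0 calls.

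**Figure D4:**
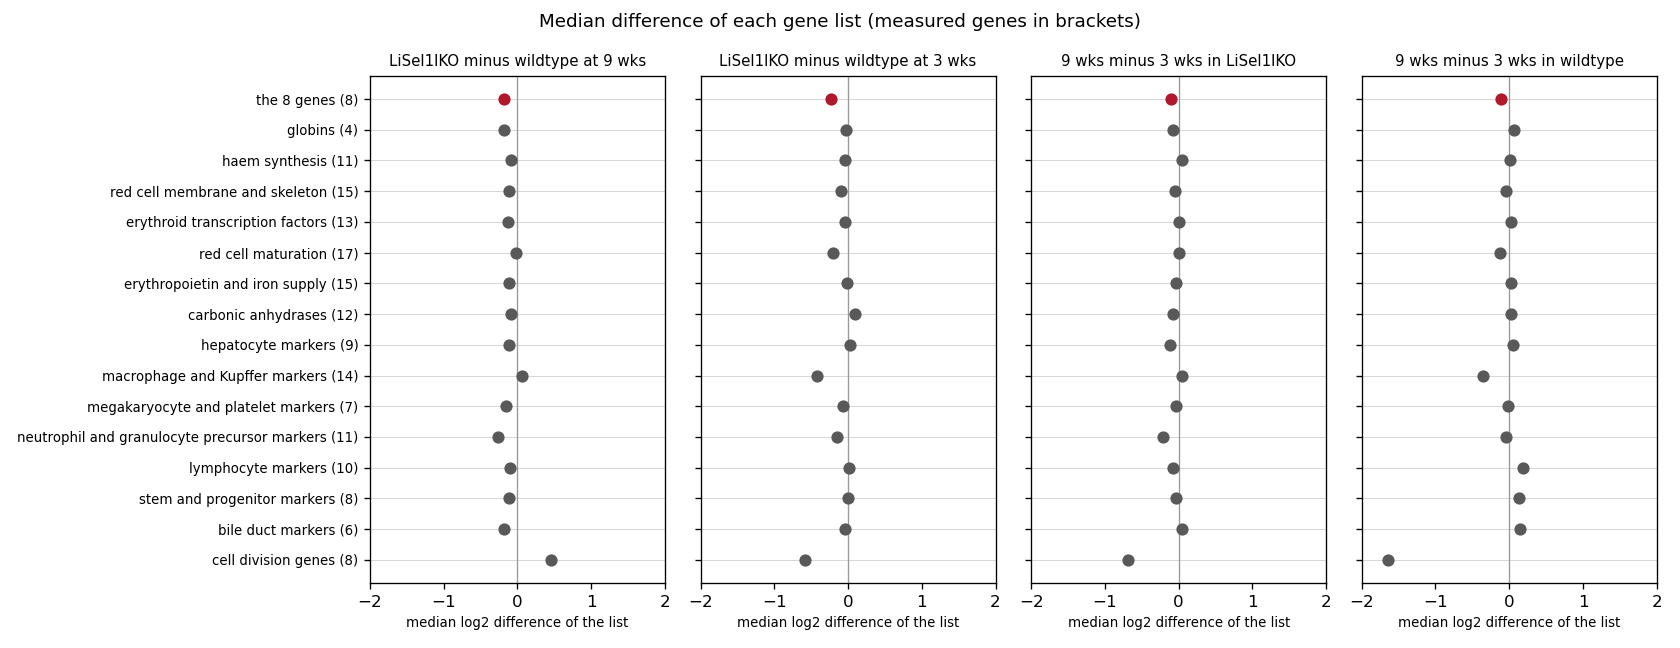
Median log2 difference of the 8 genes and of each other gene list (rows, number of measured genes in brackets) in 4 contrasts (1 panel each). The medians of the red cell lists lie within 0.23 of 0, while cell division genes have -1.65 for age in wildtype livers and macrophage and Kupffer markers -0.42 between genotypes at 3 wks.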

How the data were processed

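RNA of 13 whole livers was measured, 1 array per liver. The deposited log2 values were made by the authors with RMA (background correction, quantile normalization and probe summary), per the submitters' processing notes, which give no version. No probe set definition or genome build is given in the sources used here. RMA largely removes a shift common to most genes. Of 35556 features, 21218 had 1 gene symbol, 1881 several and 12457 were not listed in the annotation. The file carried no detection calls.

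The sample titles, which describe separate mice, gave each liver its group and replicate number. Nothing states the litters, so p-values measure the spread between these livers (median SD of a feature 0.148 to 0.156). With limma 3.58.1 (R 4.3.3), lmFit took a mean per group over all 13 livers and eBayes gave two-sided tests, adjusted by Benjamini-Hochberg over all features, in 5 contrasts. The fit was tested on simulated data with independent noise, for the wildtype age contrast only. The 8 genes and the 15 other lists (160 of 186 genes measured) were chosen with earlier results of these data known. From each list the genes with the smallest unadjusted p could be named, up to 4 in the wildtype age contrast and 3 in each genotype contrast, and those past the threshold where there were 4 or fewer. Genes of like pattern were the 6 highest by r, without predicted genes. Alternatives were an intensity trend, robust eBayes, only the groups compared, other normalizations, feature filters (1 symbol, mean of at least 4), position column or replicate number as a block, and each liver left out. Features with several symbols were left out of gene naming.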

Additional observations from a re-analysis of the deposited data

Results flagged for a closer look

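Hemgn in LiSel1lKO replicate 1 of 3 wks read 2.66, apart from the 3 other LiSel1lKO livers of that age, which shared 1 value of 2.60. The whole range of the group is thus the gap to this liver, the largest Dixon ratio that 4 values can give (1.00). The ratio takes this value because the 3 other values are tied. Among untied values chance gives a ratio past the limit in about 1 of 20 groups, and the groups examined were 9 genes (the 8 and Sel1l) in the same 4 livers. The level lies below the array medians.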

How the results depend on the processing

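Of 40 differences (8 genes in 5 contrasts), 25 kept their direction and their side of the threshold under all alternatives run, and 27 never changed sign. Those that changed sign were uncalled values near 0. Some uncalled genes outside the 8 passed the test under a few alternatives. Between genotypes at 9 wks these were Tfr2 (5 alternatives), Abcb10 (4), Tspan33 and Ypel4 (2 each), and Car8 and Sel1l (1 each). With age in wildtype livers they were Hmox1 (6), Abcb10 and Slc43a1 (3 each) and Tfrc (2). The count of the 8 genes called between genotypes at 9 wks was 1, and 0 with only the groups of the contrast in the fit. With 1 liver left out that count was 0 to 1 at 9 wks, and the count for age in wildtype livers was 2 to 3. In the other 3 contrasts it was 0 under all alternatives run. Over all features, 539 were called between genotypes at 9 wks, against 1 with only the groups of the contrast, 940 with a mean of at least 4, 294 with the position column as a block and 18 to 1178 with 1 liver left out (18 without LiSel1lKO replicate 3 of 9 wks, 1178 without its replicate 1). At 3 wks the count was 0, against 2 with features of 1 symbol and 0 to 1 with 1 liver left out, and for the difference of the genotype effects 0, against 15 and 0 to 36. For age in LiSel1lKO livers it was 55, against 90 with an intensity trend, 9 with only the groups of the contrast, 35 with array medians centred, 144 with features of 1 symbol, 118 with a mean of at least 4, 18 with the position column as a block and 6 to 210 with 1 liver left out. For age in wildtype livers it was 672, against 255 with only the groups of the contrast and 296 to 639 with 1 liver left out. The cause of these moves was not tested.

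The deviations of livers of different groups with the same number in their titles correlated only weakly (18 pairs, r from -0.01 to 0.08, median 0.03). Pairs with different numbers lay slightly lower (45 pairs, r from -0.09 to 0.06, median -0.01). No pair of either kind was above 0.1, so these numbers were not taken to pair the mice. The array descriptions number 2 livers otherwise (replicate 3 of each genotype at 9 wks carries a 4 there), and by those numbers r was -0.02 to 0.08 (16 pairs). The title numbers were used. With the replicate block, which fits LiSel1lKO replicate 4 of 3 wks exactly, 184 features were called between genotypes at 9 wks, 12 for age in LiSel1lKO livers and 440 for age in wildtype livers. The block turned the sign of Klf1 for the difference of the genotype effects (0.06) and, for age in LiSel1lKO livers, of Alas2 (-0.14), Car1 (0.01) and Klf1 (0.03), and changed no call among the 8 genes. Quantile normalization turned Alas2 for age in LiSel1lKO livers (-0.01), and the position block turned Epb42 between genotypes at 9 wks (0.07). With 1 liver left out the difference of the genotype effects ranged from -0.44 to 0.09 for Alas2, -0.08 to 0.12 for Rhag, -0.07 to 0.13 for Hemgn and -0.30 to 0.06 for Klf1. Age in LiSel1lKO livers ranged from -0.14 to 0.27 for Alas2, -0.42 to 0.01 for Car1 and -0.32 to 0.03 for Klf1. Age in wildtype livers ranged from -0.04 to 0.47 for Alas2, -0.19 to 0.02 for Rhag and -0.16 to 0.11 for Klf1. The genotype difference at 3 wks ranged from -0.20 to 0.00 for Hemgn and -0.23 to 0.13 for Klf1. Epb42, Rhag and Hemgn had no value under the filter of a mean of at least 4. Each of the 8 genes has 1 feature, so averaging features changed nothing, and the difference of the genotype effects cannot be fitted with fewer than all groups. Levels below the array medians limit what can be seen of Epb42, Rhag and Hemgn.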
